A study of Mus musculus with 6 samples.

Results

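Pigment epithelium and visual cycle genes were followed in peaks of acetylated lysine 27 of histone H3 (H3K27ac) in mouse retina. The set held 10 of the 21938 protein-coding genes of the annotation used, and its members were named by their function and not by any measured value. They were Rpe65, Lrat, Rdh5, Rgr, Stra6, Ttr, Best1, Mitf, Tyr and Pmel. A peak was assigned to a member if it overlapped the promoter, 2.5 kb on either side of any transcription start, or the window formed by the gene body with 20 kb added on either side.

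H3K27ac was profiled by ChIP-seq in whole retinas, 1 retina for each library, from WT mice that were 3 months old at their first pressure elevation. In the 3 4xIOP samples the intraocular pressure of 1 eye had been raised to 30 mmHg for 1 h on 4 occasions at biweekly intervals. The 3 control samples were untreated contralateral eyes, so that control retinas also came from mice with a stressed fellow eye. All retinas were taken on day 2 after the last of the 4 elevations, and the comparison asks whether recurring mild stress changed the distribution of the mark in young retina. Each sample is represented by 1 list of peaks. In 4 of the 6 samples, control 1 and 2 and 4xIOP 1 and 2, the name inside the deposited list is that of the other group, so every direction below holds for the groups as labelled.

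The retinal pigment epithelium is a single layer of pigmented cells behind the photoreceptors. It is a separate tissue from the neural retina but can be carried along when a retina is dissected. Photoreceptors lose their chromophore in its active 11-cis form each time they absorb light, and the epithelium restores it through the visual cycle: all-trans retinol is taken up, esterified, isomerised and oxidised, then handed back. H3K27ac is found at promoters and enhancers in active use, and the lists therefore give a view of which of these genes carried the mark in the dissected tissue.

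The lists held between 16195 peaks in 4xIOP 3 and 36509 in control 3, with 19913 to 21893 in the other 4. No read totals are given with them. From the fold and p-value of each peak, the number of DNA fragments at its summit and the fragments expected there from the local background were recovered. The smallest background found in a list stood for its genome-wide mean, and summit enrichment is given below as summit fragments divided by that mean. At the genome mean, the weakest peak called had an enrichment of 4.11, 3.55 and 3.65 in control 1 to 3 and 4.97, 4.24 and 3.90 in 4xIOP 1 to 3. Where the local background was higher, a peak needed more: at a region upstream of Rgr in 4xIOP 1, with 17.3 background fragments, an enrichment of 19.4 was a fold of only 2.18. The level below which a promoter could go uncalled therefore differed between sites, and absence of a peak is not absence of the mark. In a whole retina, fewer cells that carry a mark and less of the mark in each cell cannot be told apart.

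Of the 10 members, 2 had a peak at a promoter in at least 1 list and 8 had none in any list. Mitf, the transcription factor that sets the pigment cell programme, was marked in 5 of 6 lists, all but control 2, and 44.3% of all genes were marked in at least 5. Pmel, the protein of the fibrils on which melanin is laid down, was marked in control 3 alone. Among all protein-coding genes, promoters were marked in 48.6%, 46.2% and 56.9% of genes in control 1 to 3 and in 47.4%, 45.7% and 44.6% in 4xIOP 1 to 3, and 42.4% of genes were marked in no list. The members had 1, 0 and 2 marked promoters in control 1 to 3 and 1 in each 4xIOP list. The group means were both 1, and no member was marked in each list of 1 group while unmarked throughout the other. That pattern held for 0.36% of all genes in the control direction and 0% in the 4xIOP direction.

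**Figure D1:**
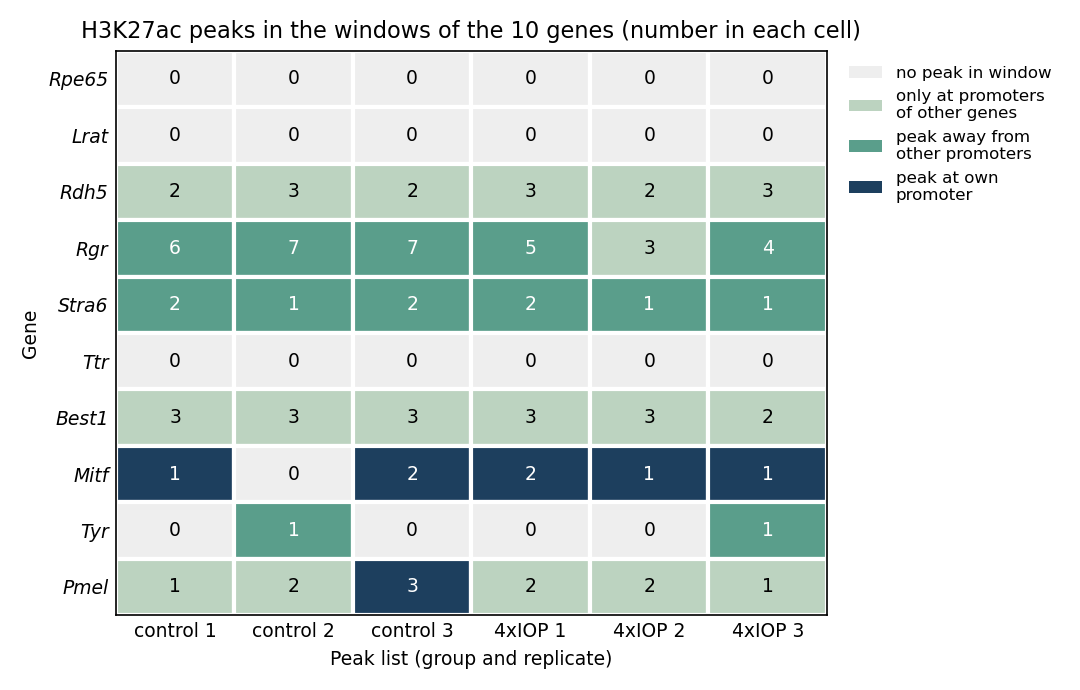
Number of H3K27ac peaks in the window of each gene (rows) in each peak list (columns). Cell colour marks the closest class of peak found, from no peak to a peak at the gene's own promoter. Rpe65, Lrat and Ttr have 0 peaks in all 6 lists, Mitf has a peak at its own promoter in 5 lists and Pmel in 1.

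The promoters that set these results apart are shown as the 250 bases upstream of a start, 5′ to 3′ on the coding strand, from RefSeq on GRCm38.p6. Capitals mark CpG dinucleotides and any match, on either strand, to 3 hexamers. CATGTG is an E-box bound by MITF, the palindromic E-box is CACGTG, and the sequence TAATCC is the core recognised by the photoreceptor factors CRX and OTX2. The sequences chosen are the marked promoter of Mitf (chr6:97806808-97807057), its unmarked promoter farthest downstream (chr6:97991533-97991782), and the unmarked promoter of Rpe65 (chr3:159598931-159599180).
Mitf, 5′-most promoter: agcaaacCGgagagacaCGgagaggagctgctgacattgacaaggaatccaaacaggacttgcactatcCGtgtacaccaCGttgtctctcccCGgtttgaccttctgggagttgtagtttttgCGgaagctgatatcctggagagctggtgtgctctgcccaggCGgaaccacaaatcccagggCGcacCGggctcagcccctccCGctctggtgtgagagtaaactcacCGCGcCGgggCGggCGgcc
Mitf, 3′-most promoter: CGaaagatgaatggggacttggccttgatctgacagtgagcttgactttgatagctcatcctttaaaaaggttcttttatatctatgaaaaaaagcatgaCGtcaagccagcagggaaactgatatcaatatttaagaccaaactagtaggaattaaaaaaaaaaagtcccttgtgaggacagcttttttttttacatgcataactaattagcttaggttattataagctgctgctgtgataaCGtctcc
Rpe65 promoter: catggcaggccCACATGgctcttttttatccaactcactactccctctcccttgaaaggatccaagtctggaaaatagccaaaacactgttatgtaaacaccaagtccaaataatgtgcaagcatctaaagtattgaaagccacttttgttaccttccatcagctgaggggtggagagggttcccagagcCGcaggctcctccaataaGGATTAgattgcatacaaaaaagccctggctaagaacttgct

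The 5′-most Mitf promoter had 15 CpG dinucleotides and a GC content of 59.6%, against 3 and 36% at the 3′-most promoter and 1 and 45.2% at Rpe65. The marked Mitf promoter held none of the 3 hexamers and neither did the 3′-most one. The Rpe65 stretch held CATGTG once, read as CACATG on the strand shown, and TAATCC once, read as GGATTA, and it lay under no peak. Of 32841 promoter stretches of the same length in RefSeq, 12.3% held CATGTG, 6.02% held CACGTG and 6.25% held TAATCC. Promoter stretches were found for 8 of the 10 members. Of the 3 Mitf stretches in the table, the 1 not printed held TAATCC, and its start had no peak. Tyr held CATGTG, and Rgr and Best1 each held TAATCC, without a promoter peak in any list. A match describes letters only and is no evidence of binding.

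CpG content differed between marked and unmarked promoters across the genome. A promoter was called CpG-rich if the 500 bp on either side of the start had a GC content of at least 50% and an observed-to-expected CpG ratio of at least 0.6, a class added after the data had been seen. Of 10794 genes with such a promoter, 68.3% were marked in all 6 lists and 89.8% in at least 1. Of 11144 CpG-poor genes, 11.6% were marked in all lists and 26.4% in at least 1. Among the members, 8 were CpG-poor, and of these only Pmel was marked in any list. The CpG-rich members were Mitf, which was marked, and Lrat, which was not.

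Of the members that encode visual cycle enzymes, Rpe65, Lrat and Rdh5, none had a promoter peak at a start of the basic annotation. Rpe65 (chr3:159599175-159625321, plus strand) encodes the isomerohydrolase that turns all-trans retinyl esters into 11-cis retinol. It had 0 peaks in its window in all 6 lists, as did 29% of all genes. The nearest peak to a Rpe65 start was 1562 kb away in control 1, control 2, 4xIOP 2 and 4xIOP 3, 104 kb away in control 3 and 419.9 kb away in 4xIOP 1. Lrat (chr3:82892579-82903973, minus strand) makes the retinyl esters that Rpe65 uses. Its nearest peak lay between 151 and 152 kb from its start in every list, and its CpG-rich promoter had a GC content of 57.5%.

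Rdh5 (chr10:128913593-128922888, minus strand), the dehydrogenase that oxidises 11-cis retinol, had 2 or 3 peaks in its window in each list, but each lay at the promoter of a neighbour. A region upstream, at -4.05 kb from its start, was called in all 6 lists and covered the promoter of Bloc1s1, a subunit of a complex that helps to form melanosomes and related organelles. A region 9.41 kb downstream, also in all 6 lists, covered the promoter of Cd63, a tetraspanin of late endosomes. A further Rdh5 transcript, listed only in the comprehensive GENCODE annotation, begins 0.024 kb from the Bloc1s1 region. With this start counted, an alternative chosen after the data had been seen, Rdh5 was marked in 6 of 6 lists through that shared peak.

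Rgr (chr14:37034909-37048964, minus strand) encodes an opsin of the epithelium and Müller glia that binds all-trans retinal. Its window held 6, 7 and 7 peaks in control 1 to 3 and 5, 3 and 4 in 4xIOP 1 to 3. Most of them lay upstream, at the promoters of Lrit1 and Lrit2, which encode leucine-rich repeat proteins of the retina and were themselves marked in 6 of 6 lists. No region of the Rgr window away from promoters was found in more than 2 lists. Within the gene, a peak at 9.22 kb from the start was called in control 1 and 2, with 27 and 38 summit fragments, and another at 9.94 kb in 4xIOP 3 with 31. A peak beyond the 3′ end, at 14.7 kb, had 25 fragments in control 3 and 24 in 4xIOP 1.

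Stra6 (chr9:58063788-58153996, plus strand) encodes the membrane receptor through which the epithelium takes up retinol. Its promoters were unmarked in all 6 lists, but a region inside the gene, chr9:58144027-58144455, was called in every list. It was the only region called in all 6 lists that lay in a member's window away from any promoter. Its median summit was 9.62 kb from the nearest Stra6 start, in the intron between exons 8 and 9 of its 19-exon transcript, and no annotated exon overlapped the region. The 300 bases around the summit, read from the GRCm38.p6 genome on the plus strand (chr9:58144137-58144436), are given with CpG dinucleotides and the same hexamers in capitals.
Stra6 intronic region: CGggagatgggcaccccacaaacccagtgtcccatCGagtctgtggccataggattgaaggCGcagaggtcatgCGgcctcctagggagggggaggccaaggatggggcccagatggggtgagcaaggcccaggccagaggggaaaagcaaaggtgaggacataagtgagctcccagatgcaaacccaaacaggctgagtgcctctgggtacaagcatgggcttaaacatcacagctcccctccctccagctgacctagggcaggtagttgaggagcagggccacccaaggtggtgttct

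The stretch held 4 CpG dinucleotides at a GC content of 60% and none of the 3 hexamers. Of 10528 stretches of the same length at the summits of regions called in all 6 lists, 7.53% held CATGTG, 4.03% held CACGTG and 4.25% held TAATCC. The summit of the Stra6 region had 50, 35 and 65 fragments in control 1 to 3 and 47, 47 and 28 in 4xIOP 1 to 3. As enrichment these were 22.8, 10.4 and 26.3 in control and 23.4, 22.1 and 10.9 in 4xIOP. The lowest values were those of control 2 and 4xIOP 3, and the groups overlapped. The means were 19.8 ± 8.39 and 18.8 ± 6.87 (SD, n = 3), a difference of -0.05 on the log2 scale (two-sided exact permutation p = 0.9, where the smallest p that 3 against 3 allows is 0.1). A further region, whose median summit lay in the same intron 10.3 kb from the start and whose end reached into exon 9, was called in control 1, control 3 and 4xIOP 1 with 34, 46 and 39 fragments.

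**Figure D2:**
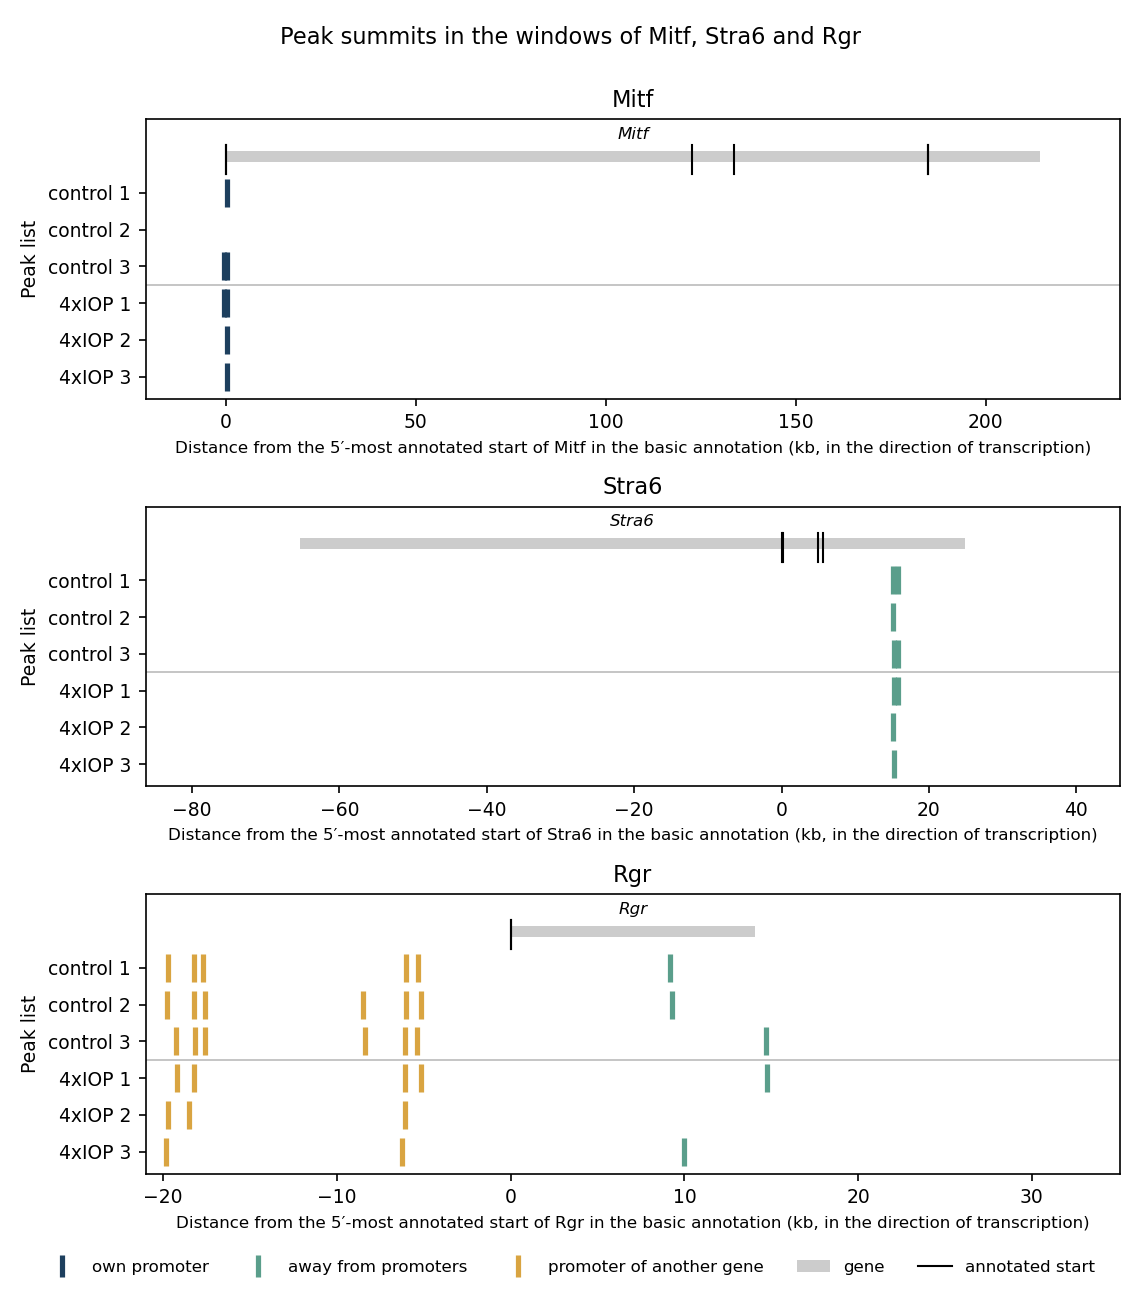
Summits of all peaks in the windows of Mitf, Stra6 and Rgr, 1 row for each peak list, by distance in kb from the 5′-most start of the gene in the direction of transcription. The grey bar is the annotated gene, black ticks are its starts in the basic annotation, and colour gives the class of the peak. Mitf peaks sit at its 5′-most start alone, Stra6 peaks sit within the gene, and most Rgr peaks sit upstream at promoters of other genes.

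Ttr (chr18:20665280-20674321, plus strand) encodes transthyretin, which carries the retinol-binding protein in blood and is made in large amounts by the pigment epithelium. No list had a peak in its window. The nearest peak was at 80.3, 230.6 and 49.3 kb in control 1 to 3 and at 230.5, 230.5 and 230.6 kb in 4xIOP 1 to 3.

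Best1 (chr19:9985174-10001633, minus strand) encodes bestrophin 1, a calcium-activated chloride channel of the basolateral membrane of the epithelium. Its promoter was unmarked in all lists. The 2 or 3 peaks in its window belonged to its neighbours Fth1, the ferritin heavy chain, with 2 regions called in all 6 lists, and Rab3il1, an exchange factor for small GTPases, with 1 region called in all lists but 4xIOP 3. The nearest peak to the Best1 start was 16.4 to 18.3 kb away.

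Mitf (chr6:97807052-98021349, plus strand) has several alternative promoters. The 5′-most gives the A form, which is widely expressed, and the 3′-most gives the M form of melanocytes. Peaks were found only at the 5′-most start. The starts 122.7, 133.9 and 184.7 kb downstream of it were unmarked in all 6 lists. The main Mitf region, chr6:97806986-97807705, had 25 summit fragments in control 1, no peak in control 2, and 33 in control 3. In 4xIOP 1 to 3 it had 20, 15 and 13 fragments. A second region just upstream was called with 27 fragments in control 3 and 14 in 4xIOP 1. Summit enrichment was 11.4 and 13.4 in the control lists with a peak and 9.95, 7.07 and 5.07 in 4xIOP. Among the marked promoters of each list, these values were at percentile 27.4 in control 1, 20.4 in control 3, and 14.0, 4.02 and 0.950 in 4xIOP 1 to 3. A rank by another measure was taken among all peaks and not among marked promoters. Its percentiles therefore do not compare directly with those above. By the deposited fold over local background, which was 5.78 and 5.67 in control 1 and 3 and 4.95, 3.55 and 3.93 in 4xIOP 1 to 3, Mitf was at percentile 82.4, 75.9, 70.1, 34.9 and 37.5 of all peaks of these lists. The 3 values in 4xIOP lay below the 2 in control, but the only list without a peak was a control, and no test was made. At a −log10 q of at least 5, Mitf had a peak in control 1, control 3 and 4xIOP 1, and the peaks of 4xIOP 2 and 3 were lost. The 2 regions held all the peaks in the Mitf window.

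Rod promoters gave a scale for these levels. Over 18 rod photoreceptor genes, the median summit enrichment of the marked promoters was 36.5, 25.7 and 53.7 in control 1 to 3 and 35.3, 47.4 and 20.7 in 4xIOP 1 to 3. Over all marked promoters it was 14.6, 10.4 and 24.3 in control and 15.9, 14.1 and 10.9 in 4xIOP. On this scale Mitf lay below the median of all marked promoters in each list in which it was called, whereas the Stra6 intronic region lay at or above it in all 6 lists. By fold over local background the order of the pair turned: in the 5 lists with a Mitf peak, the Stra6 fold was 4.08 and 3.69 in control 1 and 3 and 3.41, 3.42 and 3.74 in 4xIOP 1 to 3, below that of Mitf in each.

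**Figure D3:**
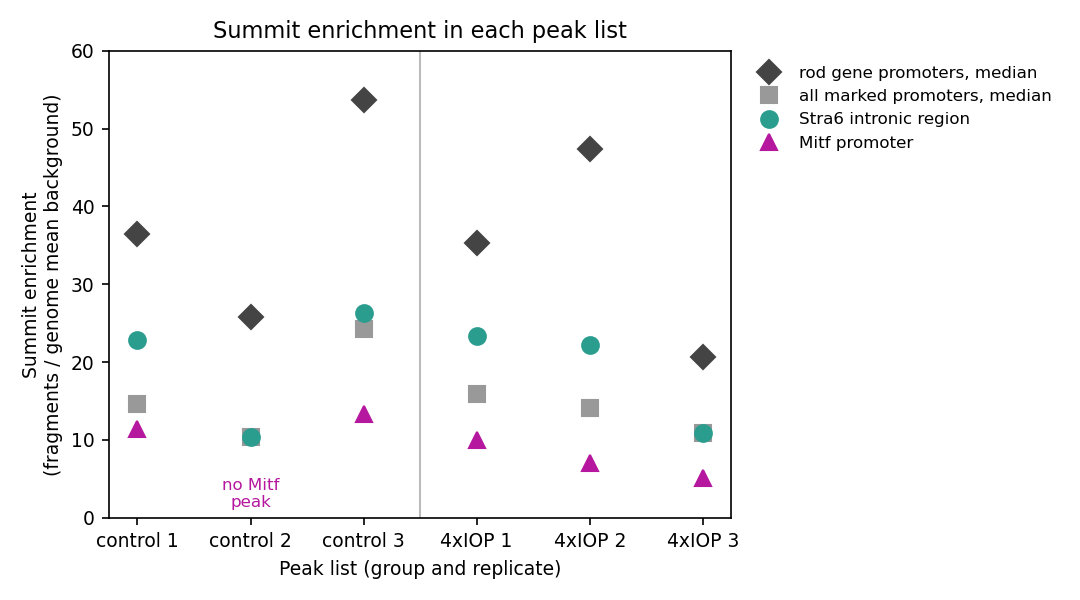
Summit enrichment (summit fragments divided by the genome mean background of the list) of the Mitf promoter and the Stra6 intronic region in each peak list, beside the medians of rod gene promoters and of all marked promoters. Mitf lies between 5.07 and 13.4 and below both medians in the 5 lists with a peak, and the Stra6 region lies between 10.4 and 26.3. By fold over local background, which is not plotted, Mitf lies above the Stra6 region in these 5 lists.

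The remaining members, Tyr and Pmel, act in melanin formation. Tyr (chr7:87424771-87493512, minus strand) encodes tyrosinase, the rate-limiting enzyme of melanin synthesis. Its promoter had no peak in any list. A region upstream, at -19.5 kb, chr7:87512863-87513091, was called in 2 lists, control 2 with 36 fragments and 4xIOP 3 with 19, and lay away from any promoter. Its summit enrichment was 10.6 in control 2 and 7.40 in 4xIOP 3, beside medians over all peaks of 9.47 and 10.1 in these lists, and its fold was at percentile 98.1 and 78.6. No peak was called there in the other 4 lists. Pmel (chr10:128704195-128720238, plus strand) had a promoter peak in control 3 with 18 fragments and an enrichment of 7.29, its summit at -1.61 kb from the start. The same peak covered the promoter of the neighbouring Cdk2, a cell cycle kinase, so that it cannot be given to either gene. When promoters shared with another gene were left out, or 1 kb was taken on either side of a start, Pmel was not marked and Mitf was the only marked member.

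The nearest peak to a start was at a median distance, over all protein-coding genes, of 4.03, 7.66 and 0.091 kb in control 1 to 3 and 5.67, 7.61 and 10.8 kb in 4xIOP 1 to 3. Rpe65, Lrat and Ttr were farther away than this in every list, and so was Best1, at 16.4 to 18.3 kb. Tyr was as well, at 1037, 19.4 and 91.1 kb in control 1 to 3 and 1701, 1037 and 19.4 kb in 4xIOP 1 to 3. Rdh5 lay at 3.62 to 3.88 kb, Rgr at 4.78 to 5.93 kb and Stra6 at 9.36 to 9.49 kb. Stra6 and Pmel were beyond the median in every list but 4xIOP 3.

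**Figure D4:**
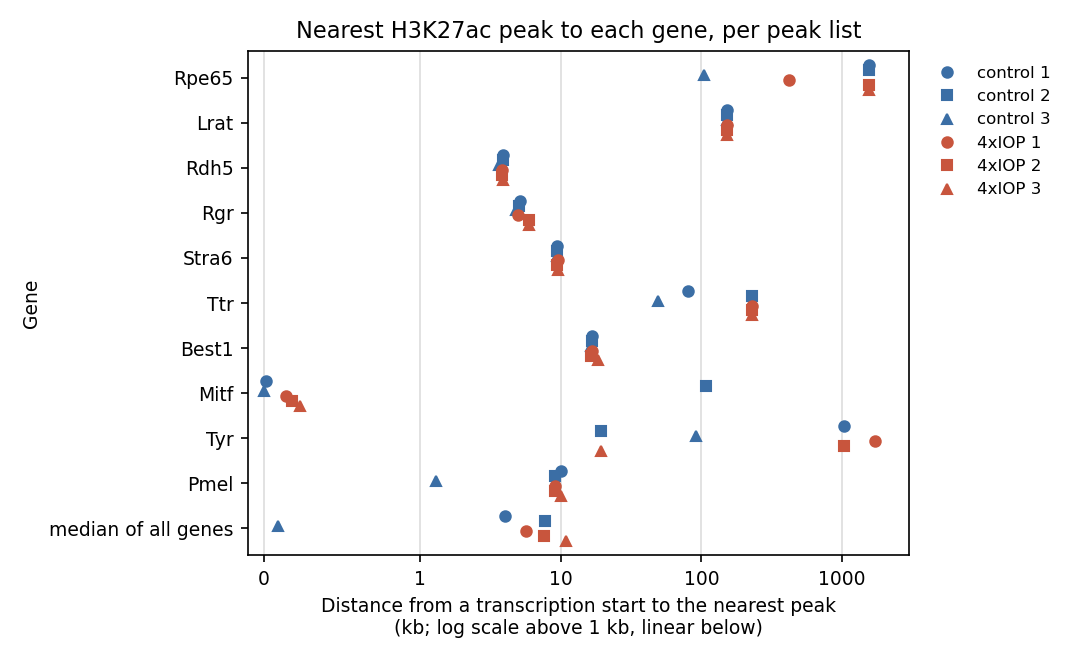
Distance in kb from a transcription start of each gene to its nearest peak, 1 point for each peak list, on a scale that is logarithmic above 1 kb and linear below. The last row gives the median over all protein-coding genes. Rpe65, Lrat and Ttr lie 49.3 kb or more from a peak in all lists, and Mitf lies within 0.229 kb in 5 lists.

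Over the 10 windows together, 22 regions were called in at least 1 list, 15 in at least 3 and 8 in all 6. Of the 22, 13 lay at the promoter of another gene, 6 lay away from promoters, 2 at the Mitf promoter and 1 at the promoter shared by Cdk2 and Pmel. Of the 8 regions in all lists, 7 lay at promoters of neighbours (Cd63, Bloc1s1, Lrit1, Lrit2, Fth1 with 2 and Rab5b, a small GTPase of early endosomes, at -10.2 kb from the Pmel start) and 1 was the Stra6 intronic region.

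At least 1 peak in the window was found for 6 members in each of control 1 to 3 and in 4xIOP 1 and 2, and for 7 in 4xIOP 3. Over all protein-coding genes the share was 63.1%, 60.6% and 70% in control 1 to 3 and 61.6%, 61.2% and 59.1% in 4xIOP 1 to 3. Once peaks at promoters of other genes were set aside, every control list had a peak for 3 members, and 4xIOP 1 to 3 had one for 3, 2 and 4 members. The corresponding shares of all genes were 41.2%, 38.4% and 53.1% in control and 40.1%, 40.4% and 34% in 4xIOP. The 4 members were Rgr, Stra6, Mitf and Tyr. The other 6 had no such peak in any list, as had 44.6% of all genes.

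Peaks in the windows numbered 15, 17 and 19 in control 1 to 3 and 17, 12 and 13 in 4xIOP 1 to 3, with means of 17 ± 2 and 14 ± 2.65 (SD, n = 3). The groups overlapped. When the 16195 strongest peaks of each list were used, the difference of -3 became -0.33, and it was -0.33 as well without the peaks at promoters of other genes.

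The 8 regions called in all lists were also compared by limma on normal scores of the within-list rank of their fold, fitted over all 10529 such regions with Benjamini-Hochberg adjustment. None of them passed the threshold (adjusted p of 0.9999 for each), and 0% of the 10529 regions were called higher and 0% lower in 4xIOP. Without adjustment, 333 of the 10529 regions and none of the 8 had a p below 0.05. Score differences, 4xIOP minus control, ran from -0.37 at Bloc1s1 to 0.23 at Cd63, and 6 of the 8 were above 0. The direction turned with the measure: as log2 summit enrichment, 7 of the 8 differences were below 0, from -0.48 at Bloc1s1 to 0.02 at an Fth1 region, and at 5 regions (Rab5b, Cd63, Lrit1, Lrit2 and Stra6) the signs differed, so no direction is drawn. The smallest exact permutation p of these differences was 0.4 (n = 3). At the Stra6 region the difference was 0.04 ± 0.31 (SE). The SE of the 8 regions ran from 0.30 to 0.35, so that differences of the observed size could not be told from 0, and the result does not show that the regions were alike. In log2 summit enrichment, the ranges of the groups overlapped at all 8 regions. Over all regions, separation was counted on the rank scores of fold, a different measure. There, 4.31% of regions separated the groups with higher and 4.05% with lower scores in 4xIOP.

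Other genes of the same pathways were read from lists that do not include the members. Rlbp1 and Sox9 each stand in more than 1 of the gene lists described here. Of 19 other visual cycle and retinoid genes, 13, 12 and 13 were marked in control 1 to 3 and 12, 13 and 12 in 4xIOP 1 to 3. Those marked in all 6 lists numbered 11 and included Rbp3, the retinoid carrier of the space between photoreceptors and epithelium, Abca4, the retinal transporter of photoreceptor discs, and Rdh8 and Rdh10, dehydrogenases of all-trans retinal and of retinol. Those marked in no list numbered 6 and included Rlbp1, the 11-cis retinal carrier of the epithelium and Müller glia, Rbp4, which carries retinol in blood, and Rrh, an opsin of the epithelium.

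Of 23 other genes of the pigment epithelium, 9, 9 and 11 were marked in control 1 to 3 and 7, 8 and 6 in 4xIOP 1 to 3. These ranges did not overlap, while over all protein-coding genes the shares were 48.6%, 46.2% and 56.9% against 47.4%, 45.7% and 44.6%. With the 16195 strongest peaks of each list the counts were 8, 7 and 8 against 7, 7 and 6, and the ranges met. The genes marked in all lists numbered 5 and included Krt18, an epithelial keratin, Otx2, a transcription factor also used by photoreceptors, and Itgav and Itgb5, the integrin chains by which the epithelium binds shed outer segments. The 10 genes marked in no list included Kcnj13, a potassium channel of the apical membrane, Mertk, the receptor for engulfing outer segments, Serpinf1, a secreted neurotrophic factor, and Col8a2, a network-forming collagen.

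Of 16 other pigment and melanosome genes, 2 were marked in each list except control 3, where 5 were. Rab27a and Myo5a, which move melanosomes and also other vesicles, were the 2 marked in all lists. Tyrp1 and Dct, enzymes of melanin synthesis, and Oca2 and Slc45a2, melanosomal transporters, were among the 11 marked in none.

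Markers of other cell types were read in the same way. Rod genes, all 18 of them CpG-poor, had 18 marked in every control list and 16, 18 and 18 in 4xIOP 1 to 3. Examples marked in all lists were Gnat1, Pde6a and Pde6b, the transducin and phosphodiesterase subunits of the phototransduction cascade. Müller glia genes were marked in 3, 6 and 8 of 14 in control and in 5, 6 and 3 in 4xIOP, with Glul, glutamine synthetase, and Prdx6, a peroxidase, marked in all lists and Rlbp1, Aqp4, Vim and Sox9 in none. Müller glia are part of every neural retina, so an unmarked gene does not show that a cell type was missing. Of 10 endothelial genes, 1, 0 and 2 were marked in control and 0 in each 4xIOP list, with Pecam1, Cdh5, Cldn5 and Tek in none. Of 10 genes of fibroblasts and of choroidal or scleral stroma, including Col1a1, Col1a2, Col3a1 and Dcn, 0 were marked in any list.

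**Figure D5:**
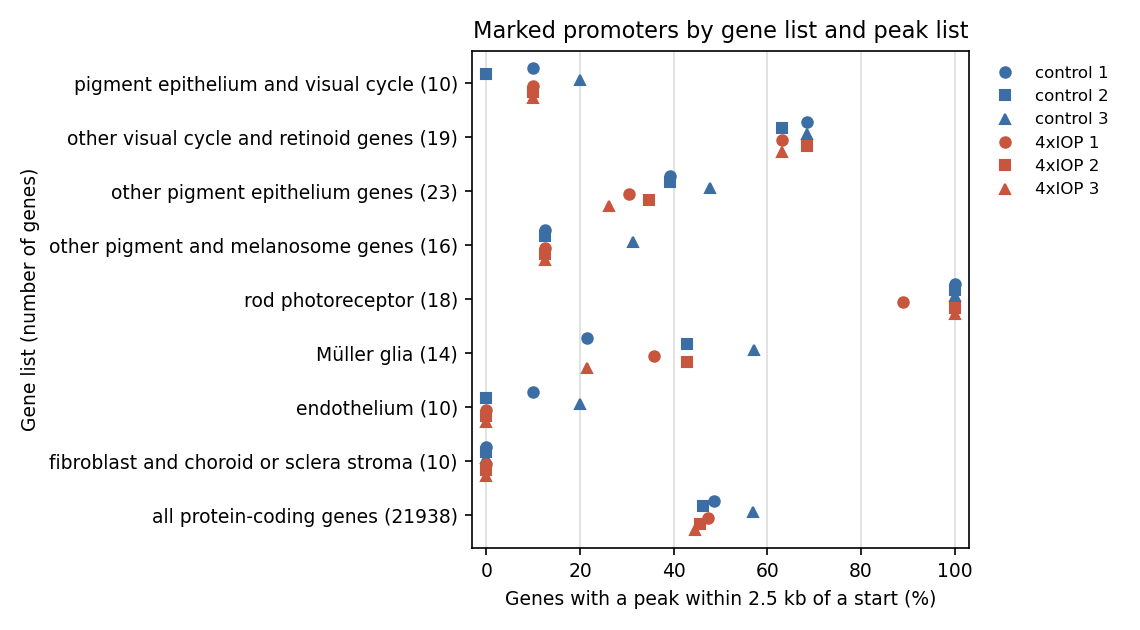
Percentage of genes with a peak within 2.5 kb of a start, by gene list (rows, with the number of genes) and peak list (points). Rod genes lie between 88.9% and 100%, the 10 pigment epithelium and visual cycle genes between 0% and 20%, and all protein-coding genes between 44.6% and 56.9%.

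As a check for pigment epithelium carried into a retina, Rpe65, Lrat, Rdh5, Rgr, Stra6, Ttr and Best1 served as its markers. None of them had a promoter peak in any list at a start of the basic annotation. With the further Rdh5 start counted, Rdh5 was marked in 6 lists through the peak at Bloc1s1. Of the 10 members, 8 were marked in no list, Rpe65, Best1, Ttr and Tyr among them, while Mitf was marked in 5 lists and Pmel in 1. The Mitf peaks lay only at the start of its widely expressed A form, and the Pmel peak was shared with Cdk2. Of the 23 other epithelial genes, 5 were marked in all 6 lists, 8 in some and 10 in none, and of the 16 melanosome genes these counts were 2, 3 and 11. Of all protein-coding genes, 39.5% were marked in all 6 lists and 42.4% in none. Control 3, which had the most peaks, also had the most marked genes among the 10 members, the other epithelial genes and the melanosome genes, and with 16195 peaks from each list it had 1 of 10, 8 of 23 and 2 of 16. The amount of epithelium below the level at which a peak could be called cannot be read from these lists.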

How the data were processed

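Peak lists of 6 retinas (3 control, 3 4xIOP) were used, with groups and replicate numbers from the labels. They came as narrowPeak files in which the authors deposited, for each peak, a fold (the ratio of fragment pile-up to local background), a −log10 p-value, a −log10 q-value and an integer score, which was not used. The submitters' processing notes name mm10, MACS2, STAR 2.7.8a, bedtools 2.29.2, HOMER and edgeR without roles. Only autosomes and the X and Y chromosomes were kept, and peaks were placed on GRCm38 using GENCODE vM21 (basic set). Summit fragments were recovered as whole numbers from fold and p under a Poisson model, which returned the deposited p within 0.001 for at least 99.99% of peaks. Overlap was 1 bp, and overlapping peaks of the 6 lists were merged into regions. Scores were fitted with limma 3.58.1 (R 4.3.3). On simulated data this fit found large score changes but missed smaller ones after adjustment, so a count of 0 does not show that regions were unchanged. The labels do not say whether a replicate number marks an animal. Deviations of same-numbered lists correlated at -0.02, -0.06 and -0.15, which cannot show whether such lists came from 1 mouse. The main fit and the exact permutation tests treated all lists as unpaired.

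The members and gene lists were chosen with earlier results of these data known. All 10 members were named. From other lists, up to 4 genes marked in all lists and up to 4 marked in none were named, in list order, together with neighbours whose promoter held a peak in a member's window. Some items are not reported here. Whether replicates shared a litter or a day is not given, so a p-value measures the spread between these samples. The number of lists and the fragments at a summit limit the precision, and the read depth reached in each sample is unknown. Alternatives were stricter q, equal numbers of peaks, other windows, left-out lists, a replicate block, fragment-length classes and all annotated transcripts.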

Additional observations from a re-analysis of the deposited data

How the results depend on the processing

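The limma comparison gave 0 regions past an adjusted p of 0.05 in either direction under all 10 alternatives, the replicate block included, with 251 to 701 regions at an unadjusted p below 0.05. The difference in marked member promoters stayed within the spread between lists under 15 of 16 alternatives. It ran from -0.5 to 0.5 with 1 list left out and was 0 with the replicate block. At a −log10 q of at least 5 it was -0.67 (control mean 1, 4xIOP mean 0.33). With the lists whose name is that of their label (control 3 and 4xIOP 3) it was -1. The number of members marked in at least 1 list, 2, became 1 with equal numbers of peaks, with 1 kb promoters, without promoters shared with other genes and in the lists with a shortest peak above 200 bp. With 1 list left out it ran from 1, without control 3, to 2, and with all annotated transcripts it was 3. This count's alternatives and the use of all transcripts were chosen after seeing the data. The difference of -3 peaks in member windows was -0.33 with equal numbers of peaks, with 5 kb on either side and without promoters of other genes, -6 with the lists named as labelled, -0.5 in the lists with a shortest peak above 200 bp, -5 in those below, -4.5 to -2 with 1 list left out and -3 with the replicate block. The log2 difference at the Stra6 region, -0.05, ran from -0.46 to 0.31 with 1 list left out and turned positive without control 1 (0.11), control 3 (0.21) or 4xIOP 3 (0.31), was -0.05 with the replicate block and -1.27 in the lists named as labelled. The causes were not tested. Depth limits the report to marks strong enough for a peak.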
